A study of Homo sapiens with 3 samples.

Results

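The loci described here are 7 stretches of the genome around genes that belong to tissues other than the prostate. They hold ALB of the liver, the HBB cluster, PTPRC and SPI1 of the blood, MYOD1 of skeletal muscle, and PAX6 and NEUROG2 of the nervous system. Each locus was a fixed hg19 window of 40 to 180 kb, set by position, though chosen with earlier results of these data known. Every called region sharing at least 1 bp with a window was taken. This gave 11 of the 71078 H3K27ac regions and 41 of the 200813 H3K4me1 regions. The cells were of the LNCaP line, which came from a lymph node metastasis of a human prostate carcinoma and responds to androgen, with no treatment given in the labels. Formaldehyde-fixed chromatin was immunoprecipitated with an antibody to H3K27ac in 1 library and to H3K4me1 in another, and the labelled input library was not analysed here. All region positions are hg19, counted from 1. With 1 library per mark there was no replicate spread and no test, the values describe these lists, and read depth is unknown, so a region missing from a list is not shown to be absent from the cells.

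H3K4me1 is placed on enhancers before and during their use, and a stretch that carries it without acetylation is called primed. H3K27ac is added by the acetyltransferases p300 and CBP at enhancers and promoters in use. Genes of other lineages are mostly silent in an epithelial cell. Silent developmental genes with promoters rich in the dinucleotide CpG are commonly held so by Polycomb complexes. CpG-poor promoters of silent tissue-restricted genes lack their activating factors. Polycomb marks were not measured here.

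No locus was bare. Both marks were found at 4 of the 7 loci, namely ALB, HBB, PTPRC and SPI1, which are the liver locus and all 3 blood loci. H3K4me1 without H3K27ac was found at the other 3, namely MYOD1, PAX6 and NEUROG2, which are the muscle locus and both neural loci. No locus carried H3K27ac without H3K4me1. The H3K4me1-only loci held 16 H3K4me1 regions over 14.1% of their length, and the loci with both marks held 25 over 6.40%, against 9.63% of chromosomes 1 to 22 and X. Single loci overlapped in this, since SPI1, with both marks, had 16.5%, above PAX6 (13.3%) and NEUROG2 (10.7%). H3K27ac covered 3.21% of the length of the loci with both marks, against 4.73% of the chromosomes.

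These states were read against consecutive stretches of the same length over chromosomes 1 to 22 and X. Both marks occurred in 58.4% of 70 kb stretches (the length of ALB), 66.2% of 100 kb stretches (HBB), 76.7% of 180 kb stretches (PTPRC) and 45.5% of 40 kb stretches (SPI1). The state of these 4 loci was thus a common one for stretches of their length. H3K4me1 alone occurred in 21.7% of 60 kb stretches (MYOD1), 19.1% of 80 kb stretches (PAX6) and 23.3% of 50 kb stretches (NEUROG2). Stretches with neither mark made up 10.6% at 180 kb and 27.6% at 40 kb. How far 7 loci depart from these shares was not tested.

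**Figure D1:**
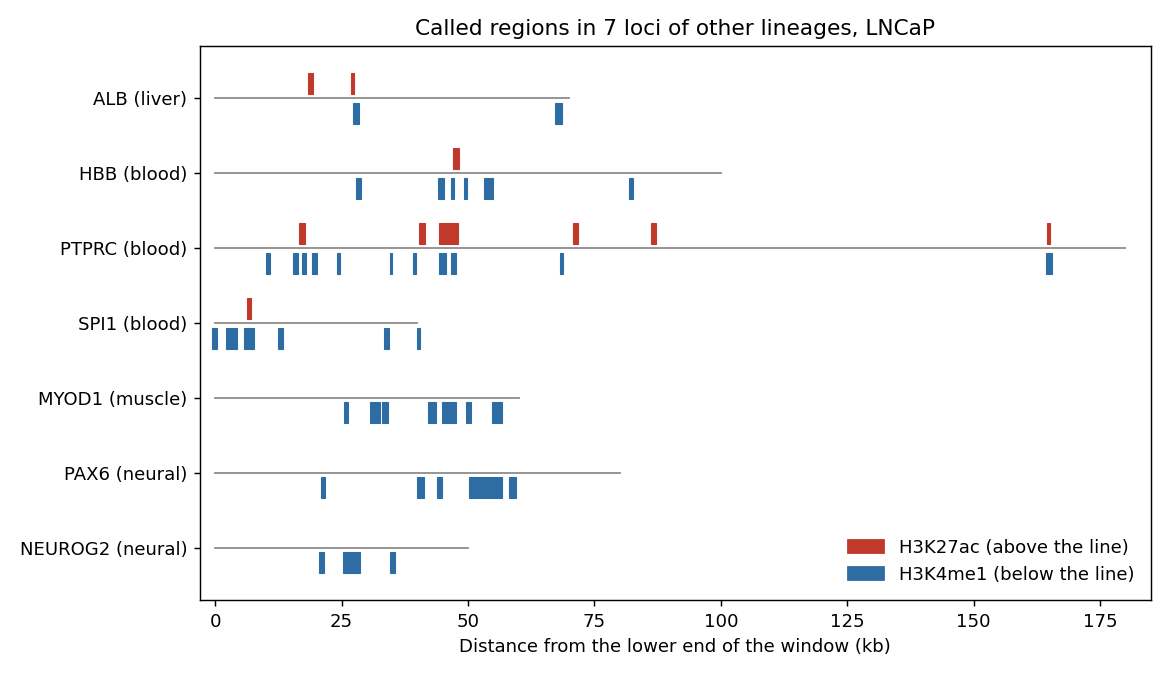
Called H3K27ac regions (red, above each line) and H3K4me1 regions (blue, below each line) in the 7 windows, drawn to scale in kb from the lower end of each window. H3K27ac appears at ALB, HBB, PTPRC and SPI1, and the rows of MYOD1, PAX6 and NEUROG2 hold H3K4me1 blocks alone.

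Promoter sequences show how the genes of the loci differ in their letters, a property the windows did not use. RefSeq promoters, from 250 bases before to 50 after the start, were matched for 4 of the 7 genes, which were ALB, PTPRC, PAX6 and NEUROG2, and not matched for HBB, SPI1 and MYOD1. They are shown 5′ to 3′ with each CpG in capitals, from the build GRCh38.p14, so their positions cannot be set against the hg19 regions. For PAX6, which has 9 promoters in the table, the most upstream is shown.
ALB, chr4:73404037-73404336, plus strand: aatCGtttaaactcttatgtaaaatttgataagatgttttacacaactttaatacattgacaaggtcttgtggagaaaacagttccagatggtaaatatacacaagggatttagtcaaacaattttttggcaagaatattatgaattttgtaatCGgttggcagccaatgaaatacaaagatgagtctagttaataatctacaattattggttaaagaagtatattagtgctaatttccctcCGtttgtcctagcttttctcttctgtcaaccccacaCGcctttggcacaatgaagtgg
PTPRC, chr1:198638790-198639089, plus strand: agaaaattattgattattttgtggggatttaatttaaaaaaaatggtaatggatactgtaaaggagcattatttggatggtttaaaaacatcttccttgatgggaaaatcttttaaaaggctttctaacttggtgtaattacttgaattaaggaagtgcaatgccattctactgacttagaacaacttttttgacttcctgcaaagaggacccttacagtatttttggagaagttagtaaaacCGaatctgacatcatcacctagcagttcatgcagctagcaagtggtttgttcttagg
PAX6, chr11:31817912-31818211, minus strand: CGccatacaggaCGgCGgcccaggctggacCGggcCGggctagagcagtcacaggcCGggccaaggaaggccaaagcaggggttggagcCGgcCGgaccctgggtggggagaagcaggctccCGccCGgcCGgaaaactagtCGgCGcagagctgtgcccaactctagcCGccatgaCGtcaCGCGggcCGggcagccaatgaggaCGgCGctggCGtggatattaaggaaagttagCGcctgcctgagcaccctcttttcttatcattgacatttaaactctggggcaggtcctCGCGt
NEUROG2, chr4:112516131-112516430, minus strand: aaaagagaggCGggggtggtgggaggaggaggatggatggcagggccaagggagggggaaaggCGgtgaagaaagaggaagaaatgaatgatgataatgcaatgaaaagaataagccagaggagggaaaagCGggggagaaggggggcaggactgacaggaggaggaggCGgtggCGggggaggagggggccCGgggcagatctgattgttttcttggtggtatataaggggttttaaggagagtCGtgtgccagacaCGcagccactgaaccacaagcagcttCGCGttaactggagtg

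Of the 4 matched genes, ALB and PTPRC, whose loci carried both marks, had AT-rich promoters. PAX6 and NEUROG2, whose loci carried H3K4me1 alone, had promoters with a GC share above 50%. The PAX6 promoter shown held 24 CpGs, with a GC share of 64.7% and a ratio of observed to expected CpG of 0.770. The NEUROG2 promoter held 10 CpGs, with a GC share of 56.3% and a ratio of 0.614. Over the most upstream promoters of all genes the medians were 13 CpGs, 58.3% and 0.577. NEUROG2 thus lay below the median in CpGs and GC share and just above it in the ratio. The ALB promoter held 4 CpGs, with a GC share of 33.3% and a ratio of 0.481, and the PTPRC promoter held 1, with 33.7% and 0.122. Of the most upstream promoters of all 27305 genes, 46.7% reached a GC share of 50% and a ratio of 0.6, as those of PAX6 and NEUROG2 did and those of ALB and PTPRC did not. Over the 9 PAX6 promoters the ratio ran between 0.306 and 0.906, and 4 reached both limits. Since HBB, SPI1 and MYOD1 are missing from this comparison, it holds for the 4 matched genes only. PAX6 and NEUROG2 out of 4 genes make a share close to the 46.7% of all genes, and a link to the states was not tested.

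ALB encodes serum albumin, the main secreted protein of hepatocytes, and its neighbours AFP and AFM belong to the same family. Its 70 kb window, chr4:74240001-74310000, was the most sparsely marked by H3K4me1, with 2 regions over 3.57% of its length, and held 2 H3K27ac regions over 2.36%. The H3K27ac region at chr4:74258351-74259400, 1050 bp wide, lay 7800 bp from any H3K4me1. The other, chr4:74266951-74267550, was 600 bp wide and shared 350 bp with the H3K4me1 region chr4:74267201-74268350 of 1150 bp. The remaining H3K4me1 region, chr4:74307201-74308550, stood near the upper end of the window, 19250 bp from any H3K27ac. The marks thus shared bases at 1 place in the locus, and 41.9% of stretches of this length held less H3K4me1.

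The HBB cluster holds the genes of the beta-type globins, the oxygen carriers of red cells, in the order HBB, HBD, HBG1, HBG2 and HBE1 by rising coordinate, among olfactory receptor genes. The window, chr11:5220001-5320000, held 2 narrow H3K27ac regions and 6 H3K4me1 regions, which covered 1.25% and 6.20% of it. The H3K27ac regions, chr11:5267001-5267550 and chr11:5267601-5268300, were 550 and 700 bp wide and nearly adjoined. The H3K4me1 region chr11:5266551-5267250 shared 250 bp with the first of them. Further H3K4me1 regions stood on either side, at chr11:5264101-5265300 and chr11:5269151-5269850, and the widest of the locus, 1900 bp, at chr11:5273151-5275050. The last 2, at chr11:5247801-5248750 and chr11:5301851-5302600, lay away from the acetylated pair by 18250 and 33550 bp. HBG1 and HBG2 are near-identical copies, and no source used here says how reads matching both were treated.

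The marked part of the globin cluster was isolated. Outside the window the nearest H3K27ac region was 372100 bp below and 301800 bp above, and the nearest H3K4me1 region 357900 bp below and 210400 bp above. The 6 H3K4me1 regions were thus the only ones called over 668 kb, and the 2 H3K27ac regions the only ones over 774 kb. In the 500 kb on either side, H3K27ac covered 15.1 kb and H3K4me1 28.4 kb, the lowest of the 7 loci for both marks, against medians of 37.6 and 73.5 kb over stretches of 1 Mb.

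PTPRC encodes CD45, the receptor tyrosine phosphatase found on white blood cells. Its 180 kb window, chr1:198580001-198760000, held the most regions, 6 of H3K27ac and 11 of H3K4me1, and the longest H3K27ac coverage, 8750 bp. By share of length this was 4.86% for H3K27ac, above 65.8% of stretches of the same length, and 5.36% for H3K4me1, above 47.1%. The region chr1:198624251-198628000 was the widest H3K27ac region of all 7 loci at 3750 bp. It carried the lowest score of its list, 0.001, as did 14.3% of all H3K27ac regions, and 9.26% of the list was at least as wide. The H3K4me1 regions chr1:198624351-198625600 and chr1:198626651-198627650, of 1250 and 1000 bp, lay wholly inside it.

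The other 5 H3K27ac regions of PTPRC were 750 to 1150 bp wide. The region chr1:198596651-198597800 shared 650 bp with the H3K4me1 region chr1:198597151-198598050, and another, chr1:198744451-198745200, lay wholly inside the H3K4me1 region chr1:198744351-198745550 of 1200 bp. Those at chr1:198620401-198621450, chr1:198650701-198651700 and chr1:198666201-198667250 touched no H3K4me1 and lay 750, 2000 and 17500 bp from the nearest. H3K4me1 crowded the lower end of the window, where the region chr1:198595351-198596450, 1100 bp wide, was among the 3 widest. Between the last of the 3 unaccompanied H3K27ac regions and the region near the upper end, a long part of the window had neither mark, as the map of the windows shows.

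SPI1 encodes PU.1, the ETS factor that directs myeloid and B cell development, and lies next to MYBPC3, which encodes a cardiac myosin-binding protein. In its 40 kb window, chr11:47370001-47410000, a single H3K27ac region of 850 bp, chr11:47376251-47377100, lay wholly inside the H3K4me1 region chr11:47375801-47377750 of 1950 bp. The 6 H3K4me1 regions covered 16.5% of the window, more than in 79.2% of stretches of this length, and H3K27ac covered 2.12%. The widest H3K4me1 region, 2150 bp, was chr11:47372201-47374350, and those of 1050 bp at chr11:47382451-47383500 and chr11:47403401-47404450 lay inside the window without H3K27ac. The regions chr11:47369351-47370300 and chr11:47409901-47410600 crossed its ends. The marks were gathered toward the lower end of the window, the side of MYBPC3, and the H3K27ac region was lost when the window was narrowed by 10 kb on each side.

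The surroundings of SPI1 were the richest of the 7 loci. In its flanks of 500 kb, H3K27ac covered 110 kb, above 92.0% of stretches of 1 Mb, and H3K4me1 covered 226 kb, above 90.9%. SPI1 thus carried its single acetylated region amid densely marked surroundings, while at HBB and PTPRC, the other blood loci, the flanks were below the 1 Mb median for both marks.

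**Figure D2:**
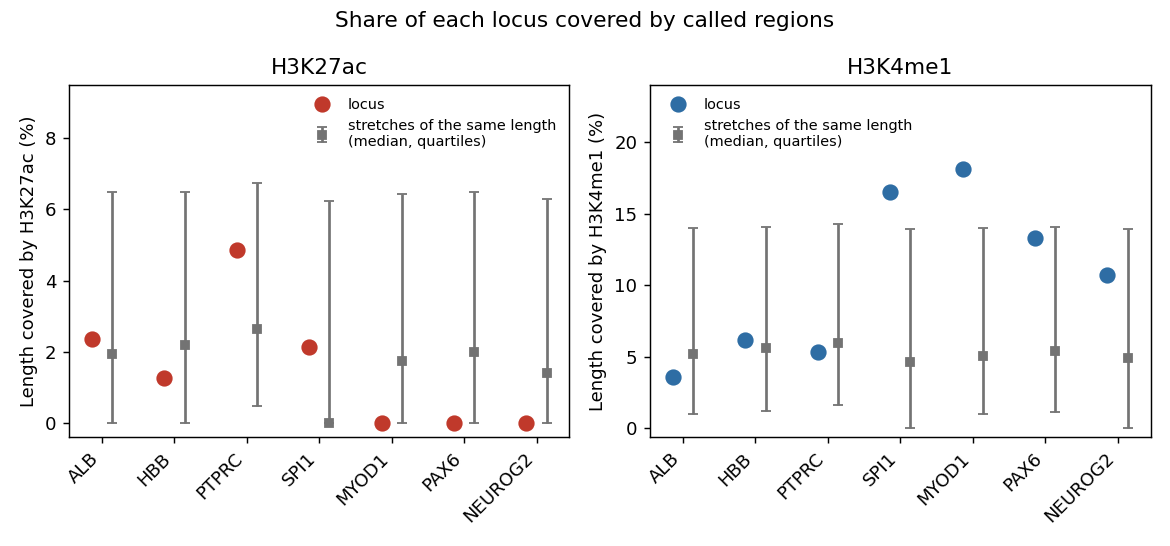
Percent of each locus covered by H3K27ac (left, red) and H3K4me1 (right, blue), with the median (square) and quartiles (bars) of stretches of the same length over chromosomes 1 to 22 and X in grey. H3K27ac is at 0 at MYOD1, PAX6 and NEUROG2, whereas H3K4me1 is above the median stretch at these 3 loci and at HBB and SPI1.

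MYOD1 encodes the basic helix-loop-helix factor that commits cells to skeletal muscle, and its upper neighbour KCNC1 encodes a neuronal potassium channel. Its 60 kb window, chr11:17710001-17770000, was the most densely covered by H3K4me1, with 7 regions over 10850 bp or 18.1% of its length, above 81.6% of stretches of this length. No H3K27ac region was called in it, as in the other H3K4me1-only loci, although 56.9% of such stretches had one. The 3 widest H3K4me1 regions were chr11:17754851-17757600 of 2750 bp, chr11:17740601-17742550 of 1950 bp and chr11:17764851-17766700 of 1850 bp. Gene starts were not placed on hg19, so whether these regions lie at MYOD1 or at KCNC1 was not determined. The other 4 were 800 to 1500 bp wide, and the lowest of the 7 began 25.4 kb above the lower end of the window. The nearest H3K27ac region, 1900 bp wide, lay 4100 bp below the window, so that windows widened by 25 kb gave MYOD1 both marks.

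PAX6 encodes the paired-box factor of eye, forebrain and spinal cord development, and its lower neighbour ELP4 holds some of its distant enhancers within introns. The 80 kb window, chr11:31780001-31860000, held 6 H3K4me1 regions over 13.3% of its length and no H3K27ac, which 63.2% of such stretches carried. The region chr11:31831001-31836650 was the widest H3K4me1 region of the 7 loci at 5650 bp, and 1.76% of the list was at least as wide. It adjoined the region chr11:31830301-31830900 of 600 bp and was followed by chr11:31838051-31839450 of 1400 bp, so that H3K4me1 was concentrated in one part of the window. The others, chr11:31800951-31801650, chr11:31819851-31821250 and chr11:31823901-31824800, were 700, 1400 and 900 bp wide. The nearest H3K27ac region was 87400 bp from the widest region, and a gap of 340 kb without H3K27ac surrounded the locus.

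NEUROG2 encodes neurogenin 2, a basic helix-loop-helix factor that starts neuronal differentiation. Its 50 kb window, chr4:113410001-113460000, held 3 H3K4me1 regions over 10.7% of its length, above 68.2% of stretches of this length, and no H3K27ac, which 52.6% of stretches carried. The middle region, chr4:113435351-113438650, was 3300 bp wide and had a score of 0.003, below which no H3K4me1 region of the 7 loci went. Each of the other loci also held an H3K4me1 region with this score, and 27.8% of the list scored no higher. On its sides stood chr4:113430551-113431600 of 1050 bp and chr4:113444651-113445650 of 1000 bp. No further H3K4me1 region followed for 41250 bp below the window and 22800 bp above it. The nearest H3K27ac region was 87000 bp from the middle region, within a gap of 209 kb without H3K27ac.

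The H3K4me1-only loci held the widest H3K4me1 regions. The widest was 5650 bp at PAX6, 3300 bp at NEUROG2 and 2750 bp at MYOD1, against 2150 bp at SPI1, 1900 bp at HBB, 1350 bp at ALB and 1250 bp at PTPRC. The ranges of these maxima did not overlap between the H3K4me1-only loci and the loci with both marks. The widest region of other stretches was not computed, so how common such a split is was not tested. Direct overlap of single regions is another measure than the state of a window. By direct overlap, the widest regions of ALB, HBB and SPI1 met no H3K27ac either, and only that of PTPRC did. Over the whole list, wide H3K4me1 regions mostly overlapped H3K27ac. Of the 3526 regions at least as wide as that of PAX6, 110 (3.12%, exact 95% interval 2.57% to 3.75%) overlapped no H3K27ac. The share was 9.78% (1348 of 13786, interval 9.29% to 10.3%) at the width of NEUROG2 and 13.8% (2829 of 20440, interval 13.4% to 14.3%) at that of MYOD1. At the widths of SPI1, HBB, ALB and PTPRC it was 20.6%, 24.5%, 35.4% and 37.4%. The regions of PAX6, NEUROG2 and MYOD1 were picked as the widest of windows without H3K27ac. The shares therefore give the place of such regions in the list and were not tested.

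**Figure D3:**
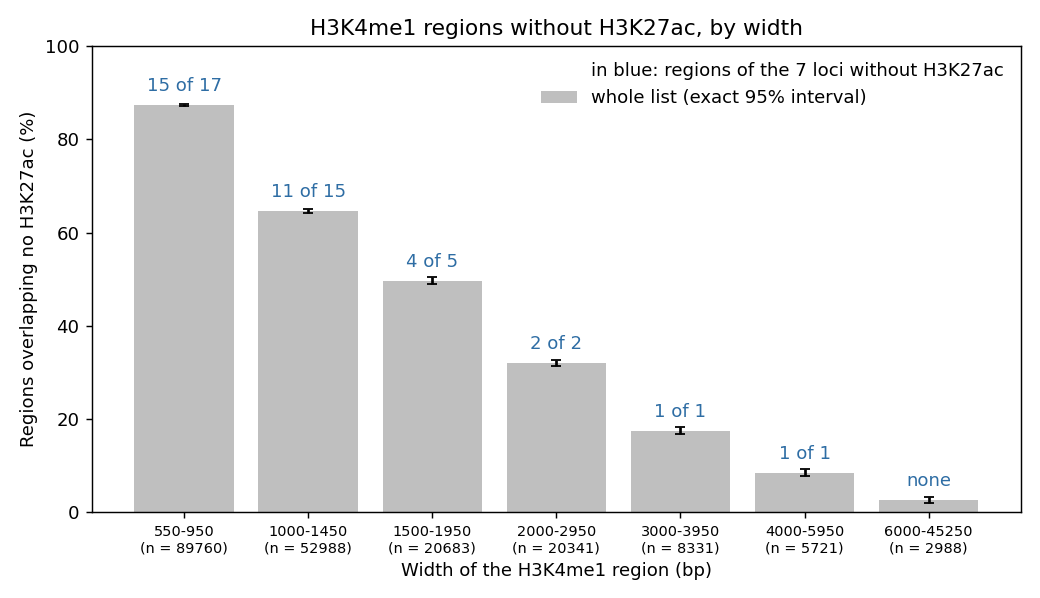
Percent of all H3K4me1 regions that overlap no H3K27ac, by width of the region in bp (grey bars, exact 95% intervals over regions), with the counts for regions of the 7 loci in blue. The share falls to 2.58% in the widest class, which holds no region of the 7 loci. All 4 member regions of 2000 bp or more lacked H3K27ac, in classes where 32.0%, 17.5% and 8.48% of the list did. Of these, the regions of MYOD1, NEUROG2 and PAX6 lie in windows without H3K27ac, so their lack of it follows from the state.

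At the level of single regions, the share overlapping the other mark was lower in the loci than over the whole lists. The counts differed mainly among the wider regions, which are few and not matched in width to those of the lists. For H3K4me1 regions part of this follows from the states, since the loci without H3K27ac hold none to overlap. H3K4me1 was met by 6 of the 11 H3K27ac regions (54.5%, exact 95% interval 23.4% to 83.3%), against 83.1% of the list, a share just inside that interval. The member regions were narrow, with a median of 1000 bp against 1600 bp over the list. Among regions up to that member median, 4 of 6 in the loci overlapped H3K4me1 (66.7%, interval 22.3% to 95.7%), against 63.9% of the 17432 such regions in the list. Among wider ones it was 2 of 5 (40.0%, interval 5.27% to 85.3%), against 89.3% of 53645 in the list. Apart from the PTPRC region of 3750 bp, these wider members were 1050 to 1150 bp wide, whereas the list reaches 121650 bp. H3K27ac was met by 7 of the 41 H3K4me1 regions (17.1%, interval 7.15% to 32.1%), against 34.5% of the list. Within the loci with both marks alone it was 7 of 25 (28.0%, interval 12.1% to 49.4%), an interval that includes the share of the list. For those up to the median width of 1050 bp the counts were 3 of 24 in the loci (12.5%, interval 2.66% to 32.4%), against 15.4% of 113196 in the list. Among wider ones they were 4 of 17 (23.5%, interval 6.81% to 49.9%), against 59.2% of 87616, a class that in the list reaches far greater widths than in the loci. Within the loci with both marks the wider ones counted 4 of 9 (44.4%, interval 13.7% to 78.8%), an interval that includes the 59.2% of the list. Intervals treat regions as independent and cover counting error over regions only.

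Most H3K27ac regions of these loci had scores above the list median. What the score measures is not given, so a higher score cannot be read as a stronger region. Scores were lower in wider regions over both lists, with a Spearman's rho across regions of -0.92 for H3K27ac and -0.89 for H3K4me1, so the scores and the narrow widths of the members are not separate. Of the 11 H3K27ac regions, 10 (90.9%, exact interval 58.7% to 99.8%) scored above the list median of 0.009, as did 41.1% of the list. The exception was the wide region of PTPRC. The H3K4me1 regions showed no such shift: 20 of 41 (48.8%, interval 32.9% to 64.9%) scored above the list median of 0.008, against 49.4% of the list. With regions at or below the median score, 1 locus, PTPRC, kept both marks and the other 6 carried H3K4me1 alone. The state of ALB, HBB and SPI1 therefore rested on H3K27ac regions that scored above the list median.

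The surroundings did not divide the loci the way their states did. H3K27ac in the flanks was above the 1 Mb median of 37.6 kb at ALB (55.8 kb), SPI1, MYOD1 (68.9 kb) and NEUROG2 (41.9 kb). It was below the median at HBB, PTPRC (22.6 kb) and PAX6 (19.1 kb). H3K4me1 in the flanks ranged between 28.4 kb at HBB and 226 kb at SPI1, with 131 kb at MYOD1, 86.0 kb at ALB, 50.0 kb at PAX6, 45.1 kb at NEUROG2 and 38.5 kb at PTPRC. The gaps without H3K27ac were 127 kb at MYOD1, 209 kb at NEUROG2 and 340 kb at PAX6, against a median gap of 13.7 kb. Long gaps hold much of the genome, and gaps at least this long made up 42.5%, 30.9% and 21.6% of the chromosome length. LNCaP has an abnormal karyotype, and the part of copy number in these lists was not tested.

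**Figure D4:**
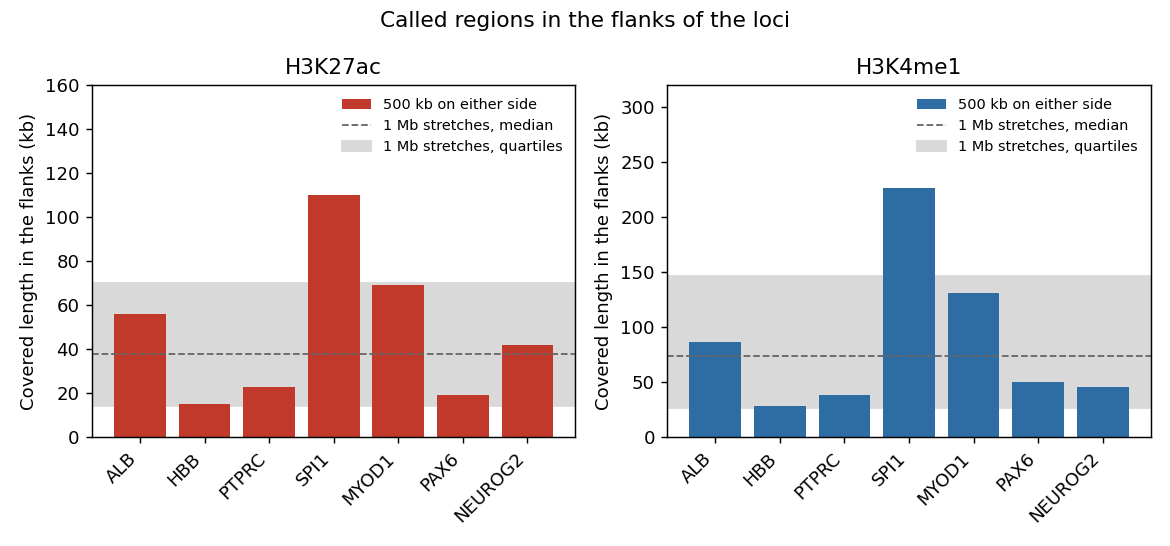
Length covered by H3K27ac (left, red bars) and H3K4me1 (right, blue bars) in the 500 kb on either side of each window together, in kb, with the median (dashed line) and quartiles (grey band) of stretches of 1 Mb. SPI1 stands above the upper quartile for both marks, and HBB lies lowest of the 7 loci for both.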

How the data were processed

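ChIP-seq of H3K27ac and H3K4me1 in LNCaP was used as deposited lists of called regions, 1 library per mark, without read counts. The submitters' processing notes name Bowtie 0.12.8 and hg19. No source used here gives the caller of the regions, its threshold or the use of the input, and these set how many and how wide the regions are. The authors deposited 1 unnamed score per region, used here only to rank and filter within a list. Starts were read as 0-based and printed counted from 1, and the mitochondrial region of each list was left out of all list-wide values. The 7 windows and the promoter lists were chosen with earlier results of these data known. Every locus was described, and single regions were named in full up to 6 per mark and window, otherwise the widest 3 and those carrying both marks.

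A state was given by regions sharing at least 1 bp with the window. Background shares came from cutting chromosomes 1 to 22 and X, up to the last called region, into consecutive stretches. Exact Clopper-Pearson 95% intervals were computed. The computation returned the known state of all 2000 simulated stretches. Gene order and promoters came from RefSeq on GRCh38.p14, and gene starts were not placed on hg19. Alternatives were the midpoint rule, score and width limits, merging, wider and narrower windows, shared bases and other cuts of the genome. Python 3.11.15, numpy 2.4.6, scipy 1.17.1 and matplotlib 3.10.9 were used.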

Additional observations from a re-analysis of the deposited data

How the results depend on the processing

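Of 154 alternative values, 120 stayed within 1.5 times the reported one. Among these are the H3K27ac lengths and counts at MYOD1, PAX6 and NEUROG2, which had no region for a filter to remove. The number of loci with both marks, 4, was 1 with scores at or below the list median (PTPRC) and 2 with regions of at least 1 kb (ALB and PTPRC). The number with H3K4me1 alone, 3, was correspondingly 6 and 5. Windows widened by 25 kb gave MYOD1 both marks, and windows narrowed by 10 kb left SPI1 with H3K4me1 alone. The midpoint rule, scores under 0.05 and the demand for shared bases changed no state. PAX6 and NEUROG2 had H3K4me1 alone under every setting tried, but of these only wider windows could have added H3K27ac. Their nearest H3K27ac regions outside the window lay 64050 and 61650 bp away, beyond the 25 kb of widening. Their unchanged state is thus no sign of stability. Covered lengths moved in 13 of 42 cases and region counts in 9 of 42, all downward, and distances to the nearest region outside in 8 of 14, all upward. Limits on score and width could move these values only in those directions. The shares of stretches moved in 0 of 28. No paired analysis was possible because there was 1 library per mark. Since depth is unknown, regions that were not called cannot be told apart from regions that too few reads covered.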

Other observations

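Promoter letters were also compared over lists of genes of the same lineages. Apart from the members described above, the loci of these genes were not examined for marks. Of the most upstream promoters of all 27305 genes, 46.7% reached a GC share of 50% and a ratio of observed to expected CpG of 0.6. Promoters were matched for 7 of 9 neural, 5 of 6 muscle, 4 of 9 blood and 4 of 8 liver genes, so many blood and liver genes are missing. Of the neural genes, 6 of the 7 with a promoter in the table reached both limits, with a median ratio of 0.770. The exception was TUBB3, a neuronal tubulin, with a ratio of 0.284. Of the muscle genes, 1 of 5 did so, ACTA1, with a median of 0.429. MYOG and MYF5, relatives of MYOD1, had ratios of 0.429 and 0.491. Of the blood genes, 1 of 4 did so, TAL1, with a median of 0.169. Of the liver genes, 0 of 4 did so, with a median of 0.266. The median over all genes was 0.577. ALB, PTPRC, PAX6 and NEUROG2 are themselves among these genes, and the neural median is the ratio of PAX6.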
